A study of Mus musculus with 8 samples.

Results

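The insulin-like growth factor (IGF) system was represented by 10 genes: the ligands Igf1 and Igf2, the receptors Igf1r and Igf2r, and the binding proteins Igfbp2, Igfbp3, Igfbp4, Igfbp5, Igfbp6 and Igfbp7. The members were every non-control probe whose accession belongs to one of these genes, which gave 14 probes of 39429 on the array. Igf1 had 4 probes, Igfbp2 had 2, and each other gene had 1. The family was chosen by earlier results of the same arrays, namely the log2 ratios of cells to reference on each treated array against the untreated array and in one cell line against the other. Values of these genes are therefore descriptions, and no test was made on them.

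IGF1 and IGF2 are secreted growth factors that act through the tyrosine kinase receptor encoded by Igf1r, which signals through insulin receptor substrates to the PI3K-AKT and MAP kinase cascades. The protein of Igf2r, which is also the cation-independent mannose 6-phosphate receptor, carries IGF2 to lysosomes. The binding proteins hold IGFs in the extracellular fluid and limit or prolong their access to the receptor, and proteases that cut them release the ligand. In pre-adipocytes, insulin or IGF1 is a classical component of the medium that drives differentiation, together with a glucocorticoid.

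The RNA came from transwell co-cultures of 3T3-L1, a mouse fibroblast line that can become adipocytes, and RAW 264.7, a mouse macrophage-like line. The cells shared medium across a porous insert for 48 h, and each line was hybridised on its own. By the methods, each line had its own set-up, with the other line on the insert and RNA taken from the lower well. Cell numbers and their ratio differed between the set-ups, and medium with hormones was renewed within the 48 h. Each line was labelled serotonin (100 µM), cortisol (100 µM), cortisol-serotonin (100 µM of each by the labels) or untreated, with 1 two-colour array per condition and 8 arrays in all. Each line is a single established line, and nothing says that the conditions were repeated. Cy5 carried the cells, and Cy3 carried a reference shared by all arrays. The methods describe the reference as a pool of untreated cells grown alone, whereas the labels describe a mix of all samples. Which one was used is not settled here. The reference drops out when arrays are subtracted only as far as its spots read alike on them, which did not hold for every probe.

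All 4 arrays of a line lay on 1 slide, so cell line, slide and culture set-up cannot be told apart. Median Cy5 signals were 51 to 103 scanner units over backgrounds of 26.5 to 28, and 43.7% to 47.8% of spots were well above background in both channels. Fibroblast markers were well above background on the 3T3-L1 arrays for 13 to 15 of 15 genes and on the RAW 264.7 arrays for 8 to 11, and macrophage markers for 9 to 10 of 14 genes and for 13 to 14. A marker whose spots were left out as outliers had no value and was counted here as not above background. Among these were Col1a1, Thy1, Sparc and Dlk1 on the RAW 264.7 cortisol-serotonin array. Others were Col1a1, Fbln2 and Itgam on the 3T3-L1 serotonin array, so the counts understate the signal. The summed Cy5 level (log2) of 10 fibroblast markers measured throughout was 17.1 to 17.3 on 3T3-L1 arrays and 11.6 to 12.0 on RAW 264.7 arrays, and that of 13 macrophage markers was 12.9 to 13.4 and 17.6 to 17.8. Adgre1, Spi1, Cybb and Fcgr1, which mark macrophages, were not well above background on any 3T3-L1 array, and Fcgr1 was not on 2 RAW 264.7 arrays either. Other markers of that list did not separate the lines in this way: Itgam had Cy5 levels of 12.34 to 13.92 on the 3 3T3-L1 arrays with a value and 9.87 to 11.48 on RAW 264.7 arrays, and Aif1 8.46 to 8.99 and 7.54 to 8.97. Of 7 adipocyte markers, only Fabp4 was well above background on 3T3-L1 arrays, and Adipoq, Lep and Cidec were not. Fkbp5 and Zbtb16, known targets of the glucocorticoid receptor that were looked up because of earlier results, exceeded the untreated 3T3-L1 array by 1.31 and 1.94 (log2) where the label was serotonin and by 1.44 and 1.96 where it was cortisol-serotonin. Where the label was cortisol they differed by 0.14 and -0.19. Tsc22d3, another such target, differed by 0.41, -1.06 and 0.77 on the 3T3-L1 arrays labelled serotonin, cortisol and cortisol-serotonin and by 0.63, -0.29 and 0.52 on the RAW 264.7 arrays. Fkbp5 differed by 0.33, -0.18 and 0.01 on the RAW 264.7 arrays, where Zbtb16 had no ratio to compare. These values go against the labels serotonin and cortisol in 3T3-L1 cells, and those of Tsc22d3 do so in RAW 264.7 cells as well, so each array is called below only by its label.

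The promoters of the 4 members that carried the differences described below are given first, to show the sequence before each start. They are the 250 bases before the RefSeq start (GRCm38.p6), 5′ to 3′ on the strand of the gene. All 10 members were found in the RefSeq promoter table, with 14 starts in all. Capitals mark the TATA box TATAAA, the variant TATTTAA and the GC box GGGCGG, each searched on both strands.
Igfbp4, chr11:99040994-99041243, plus strand: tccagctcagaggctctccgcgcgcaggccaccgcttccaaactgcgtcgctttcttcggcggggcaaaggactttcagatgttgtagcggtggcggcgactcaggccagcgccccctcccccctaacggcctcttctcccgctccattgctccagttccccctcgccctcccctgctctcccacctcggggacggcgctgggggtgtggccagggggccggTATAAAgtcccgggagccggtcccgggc
Igfbp5, chr1:72874866-72875115, minus strand: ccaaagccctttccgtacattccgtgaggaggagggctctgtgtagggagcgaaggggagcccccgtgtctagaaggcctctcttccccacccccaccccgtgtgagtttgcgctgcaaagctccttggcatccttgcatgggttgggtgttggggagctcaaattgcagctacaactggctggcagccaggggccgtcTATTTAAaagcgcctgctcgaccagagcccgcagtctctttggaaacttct
Igf1r, chr7:67952007-67952256, plus strand: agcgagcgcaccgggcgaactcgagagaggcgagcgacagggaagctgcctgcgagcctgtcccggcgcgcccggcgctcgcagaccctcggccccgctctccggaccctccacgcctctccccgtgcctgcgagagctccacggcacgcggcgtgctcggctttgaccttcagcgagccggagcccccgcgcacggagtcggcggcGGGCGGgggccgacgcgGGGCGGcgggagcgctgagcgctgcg
Igfbp6, chr15:102143936-102144185, plus strand: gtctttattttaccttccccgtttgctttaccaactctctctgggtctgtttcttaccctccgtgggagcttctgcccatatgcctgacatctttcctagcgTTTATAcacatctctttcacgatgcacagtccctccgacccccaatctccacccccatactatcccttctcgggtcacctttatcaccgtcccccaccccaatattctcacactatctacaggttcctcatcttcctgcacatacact

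Igfbp4 and Igfbp5, the members with the 2 largest differences between a treated and the untreated array, each held a TATA-type match close to the start. TATAAA began 28 bases before the start of Igfbp4, and TATTTAA began 51 bases before that of Igfbp5. TATAAA was in 12.4% and TATTTAA in 4.18% of all 32851 promoter windows of the same length. The promoter of Igf1r held 2 GC boxes and no TATA match, and GGGCGG was in 32.7% of all windows. In Igfbp6 the TATA match lay 148 bases before the start. AGAACA, the half-site of the glucocorticoid response element, was absent from these 4 windows and was present in 1 window each of Igfbp2 and Igf2, against 16.1% of all windows. The full palindrome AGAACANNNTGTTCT, which contains that half-site on both strands, was in no window of the 10 members and in 0.00913% of all windows. A match is a run of letters and not a measured site.

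Of the 10 members, 8 had a probe well above background in the Cy5 channel on all 4 arrays of at least 1 cell line, and these were Igf1, Igf1r, Igf2r, Igfbp3, Igfbp4, Igfbp5, Igfbp6 and Igfbp7. For 4 of the 8 (Igf1r, Igfbp3, Igfbp5 and Igfbp7) the signal was well above background on every 3T3-L1 array and on no RAW 264.7 array. This pattern was found for 5.85% of the 15829 genes well above background on all 4 arrays of a line, and the reverse pattern, for 2.98% of them, was found for no member. Igf2 and Igfbp2 were at background in nearly all samples. In bulk RNA, fewer cells of a type and less RNA per cell cannot be told apart, and this holds for all values below. Only Igf2r and Igfbp6 passed the filter for a ratio in both channels on all 8 arrays.

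**Figure D1:**
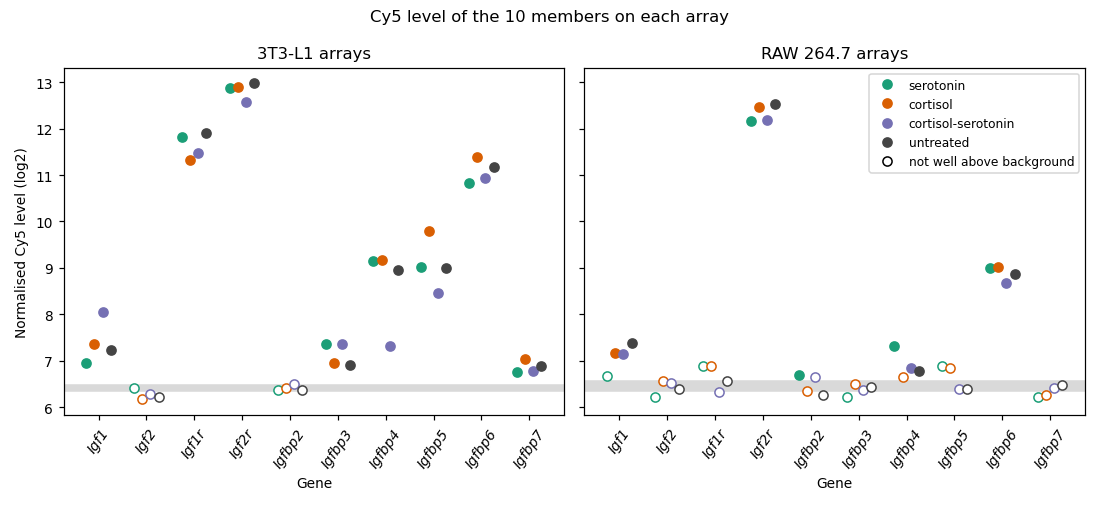
Normalised Cy5 level (log2) of 1 probe per member on each 3T3-L1 array (left) and RAW 264.7 array (right), with colours for the array labels and open points where the spot was not well above background. The grey band is the range of the lowest level well above background, 6.34 to 6.48 on 3T3-L1 arrays and 6.34 to 6.57 on RAW 264.7 arrays; Igf1r, Igfbp3, Igfbp5 and Igfbp7 are filled on the left and open on the right. Levels of different probes are not comparable with each other.

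Among the ligands, Igf1 was close to background in both cell lines. Its brightest probe had log2 ratios of cells over reference of -0.79, -0.63 and -0.72 on the 3T3-L1 arrays labelled serotonin, cortisol and cortisol-serotonin, against -0.63 on the untreated array. On RAW 264.7 arrays the ratios were -0.52, -0.54 and -1.07 on the arrays labelled serotonin, cortisol and cortisol-serotonin, against -0.74 on the untreated array; the Cy5 spot on the serotonin array was not well above background. The ranges of the 2 lines overlapped, and the mean Cy5 level was 7.39 ± 0.47 in 3T3-L1 cells and 7.09 ± 0.31 in RAW 264.7 cells (log2, SD over 4 conditions each).

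The Igf1 spot on the 3T3-L1 cortisol-serotonin array was bright in both channels. Its Cy5 signal there was 246.5 units, against 91 on the untreated array, and its Cy3 signal was 640.5 units, against 324. The loess-normalised ratio moved by -0.09 on the log2 scale, whereas the Cy5 channel alone moved by 0.86. The ratio moved by 0.46 in the software's log ratio, by 0.39 with median centring and by 0.21 without background correction. Only 2 of 6 alternative settings kept the negative sign, so the direction is not settled. Of the other 3 probes of Igf1, one lay between -0.67 and -0.25 on 3T3-L1 arrays and between -0.81 and -0.46 on RAW 264.7 arrays, with 3 and 2 of its Cy5 spots well above background. The remaining ones were well above background in Cy5 on 2 arrays of each line and on none. The single probe of Igf2, the growth factor expressed mainly before birth, was not well above background in either channel on any array, with Cy5 signals of 37 to 49 units on 3T3-L1 arrays and 43.5 to 62 units on RAW 264.7 arrays.

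Igf1r, the signalling receptor, was bright in 3T3-L1 cells and at background in RAW 264.7 cells. Its Cy5 signals were 4057, 1747.5 and 2639 units on the 3T3-L1 arrays labelled serotonin, cortisol and cortisol-serotonin, and 3384 units on the untreated array. On the RAW 264.7 arrays they were 63, 39.5 and 37 units, and 49 units on the untreated array. No RAW 264.7 array reached a level well above background, and the groups were far apart. Igf1r was at least 30.2-fold higher in 3T3-L1 than in RAW 264.7 cells, where the bound compares the mean normalised Cy5 level of 3T3-L1 cells with, per RAW 264.7 array, the higher of the measured level and the lowest level well above background. The measured means were 11.64 ± 0.28 and 6.66 ± 0.27 (log2, SD, n = 4 conditions each). Leaving out each treatment in turn moved the bound between 27.3-fold and 33.6-fold. The values given for Igfbp5, Igfbp3 and Igfbp7 were made in the same way, and all are open to dye bias because no dyes were swapped. Some spots not well above background lay over that lowest level, such as Igfbp5 at 6.89 on the RAW 264.7 serotonin array. For the dim Igfbp3 and Igfbp7 the values are therefore not firm lower limits.

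The reference spot of Igf1r was not stable. Its Cy3 signal was 1489, 1772 and 1273 units on the treated 3T3-L1 arrays and 1830.5 units on the untreated one. It was 1287.5 and 1390 units on the RAW 264.7 arrays labelled serotonin and cortisol and 1754.5 units on the untreated one, but 220 units on that labelled cortisol-serotonin. The normalised Cy3 level there was 7.50-fold below the median of the other arrays, and 149 of 14999 probes (0.993%) had a reference at least 2 units of log2 below that of the other arrays on the same array. The log2 ratio of -1.02 on this array, beside -3.81, -3.78 and -4.10 on the serotonin, cortisol and untreated arrays, therefore came with a lower denominator and a Cy5 spot at background, and no treatment difference of Igf1r was taken in RAW 264.7 cells.

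**Figure D2:**
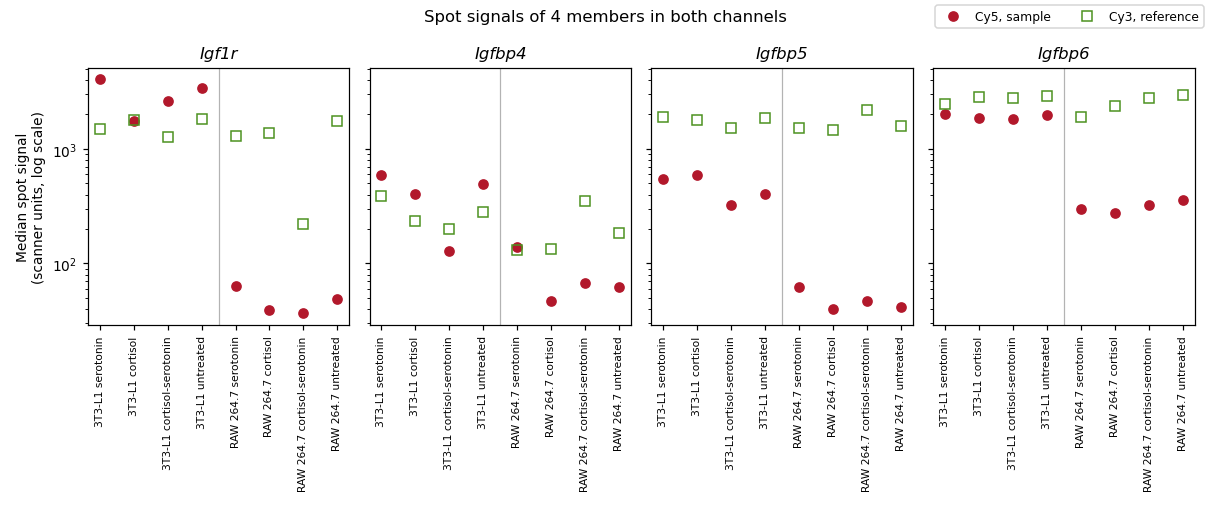
Median spot signal (scanner units, log scale) of Igf1r, Igfbp4, Igfbp5 and Igfbp6 on each array, 3T3-L1 left of the line and RAW 264.7 right of it, with filled circles for the cells (Cy5) and open squares for the reference (Cy3). The Igf1r reference stands at 220 units on the RAW 264.7 cortisol-serotonin array and at 1273 to 1830.5 units elsewhere, and the Igfbp4 circle stands at 127.5 units on the 3T3-L1 cortisol-serotonin array.

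In 3T3-L1 cells the log2 ratios of Igf1r were 1.76, 1.08 and 1.69 on the arrays labelled serotonin, cortisol and cortisol-serotonin, against 1.72 on the untreated array. The array labelled cortisol alone was low. It differed from the untreated array by -0.63 ± 0.36 on the log2 scale (1.55-fold lower), where the error combines the scanner software's errors of both spots and covers technical error only. Of the 13718 genes measured in this comparison, 8.78% differed by as much or more. With median centring in place of loess the difference was 0.08, and the median of all genes was then 0.60.

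Igf2r was the member measured with the most spots. Its probe was printed 10 times per array, 7 to 10 of the spots were used, and the SD of the log2 ratio over spots was 0.02 to 0.09. The log2 ratios were 0.59, 0.56 and 0.45 on the treated 3T3-L1 arrays in the order serotonin, cortisol, cortisol-serotonin, against 0.62 on the untreated array. They were -0.19, 0.15 and -0.19 on the RAW 264.7 arrays, against 0.25 on the untreated array. All 3T3-L1 arrays were above all RAW 264.7 arrays, with a difference of 0.55 ± 0.11 (SE of the fit over 8 arrays; 1.46-fold). Such a gap, higher in 3T3-L1, was found for 35.5% of all 10995 genes measured on all 8 arrays, and the values of the lines overlapped with median centring and with the Cy5 channel alone.

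Within RAW 264.7 cells Igf2r on the arrays labelled serotonin and cortisol-serotonin differed from the untreated array by -0.44 ± 0.29 and -0.44 ± 0.29 (1.36-fold lower each), and by -0.11 ± 0.29 on that labelled cortisol. The differences on the arrays labelled serotonin and cortisol-serotonin were several times the SD over spots, which does not cover the spread between hybridisations. Their sign was the same under all 6 alternative settings. Igf2r had 1 probe, which passed the filter on every array. For it the settings without the filter and with the brightest probe could only repeat the main value. Among all measured genes, 8.06% differed by as much or more on the serotonin array and 5.66% on the cortisol-serotonin array. On the RAW 264.7 arrays labelled serotonin, cortisol and cortisol-serotonin the median difference of the fibroblast markers was 0.59, 0.20 and 0.36 and that of the macrophage markers -0.24, -0.08 and -0.33, and their part in the values of Igf2r was not tested. In 3T3-L1 cells the differences of Igf2r were -0.03, -0.06 and -0.17, within the combined error of 0.30.

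Igfbp4, a binding protein that blocks IGF action until it is cut by pappalysin, had the largest treatment difference of the family. Its Cy5 signals were 594, 403.5 and 127.5 units on the 3T3-L1 arrays labelled serotonin, cortisol and cortisol-serotonin, against 490 units on the untreated array. The log2 ratios were 1.04, 1.84 and 0.21, against 1.42 on the untreated array. Only the cortisol-serotonin array was far below the others, in the Cy5 signal as in the ratio.

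Igfbp4 on the cortisol-serotonin array differed from the untreated array by -1.20 ± 0.42 on the log2 scale (2.30-fold lower). It was the only one of the 6 members measured in this comparison that differed at least 2-fold, beside 1.43% of all 13400 genes in either direction and 0.642% lower. Of all genes, 0.746% differed by as much or more. The difference was -0.46 with median centring, under which the median of all genes was 1.00, and -1.82 in the Cy5 channel alone. The reference level of Igfbp4 differed from that on the untreated array by -0.45 on the cortisol-serotonin array and by 0.57 on the serotonin array. On the arrays labelled serotonin and cortisol, Igfbp4 differed by -0.37 ± 0.37 and 0.42 ± 0.43, within the error.

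Igfbp4 was also lower on the cortisol-serotonin array than on either array with a single label. Against the array labelled cortisol the difference was -1.63 ± 0.44 (3.09-fold lower), and Igfbp4 and Igfbp5 were the members at least 2-fold lower there, 2 of 6, beside 0.508% of all genes. Against the array labelled serotonin it was -0.83 ± 0.39 (1.78-fold lower), where 0.202% of 13352 genes differed by as much or more. The reference of Igfbp4 was not stable between these arrays, with a normalised Cy3 level (log2) of 8.11 on the serotonin array and 7.10 on the cortisol-serotonin array. The log ratios of the serotonin and cortisol-serotonin arrays had a correlation of 0.98 over 13173 probes. The difference of Igfbp4 between them was -0.85 with median centring and -1.79 in the Cy5 channel alone. The macrophage markers had median differences of -0.50, -0.12 and -0.37 on the 3T3-L1 arrays labelled serotonin, cortisol and cortisol-serotonin, over 10 genes each, and the fibroblast markers -0.09, -0.17 and 0.00. Fabp4, the only gene of the adipocyte list measured there, differed by 2.24, -0.01 and 2.45. It does not single out adipocytes here. Its Cy5 level was 14.71 to 15.55 on RAW 264.7 arrays, against 13.51 on the untreated 3T3-L1 array. The part of these markers in the values of Igfbp4 was not tested.

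In RAW 264.7 cells Igfbp4 was near the limit of detection. Its Cy5 signals were 139, 47 and 67 units on the treated arrays, against 62.5 units on the untreated array, and the spot on the array labelled cortisol was not well above background. The array labelled serotonin, which had the highest signal, also had the highest median Cy5 signal of all arrays, 103 units. The mean Cy5 level of Igfbp4 was 8.65 ± 0.90 in 3T3-L1 and 6.90 ± 0.29 in RAW 264.7 cells (log2, SD, n = 4 conditions each; 3.36-fold), with the lowest 3T3-L1 array at 7.31 and the highest RAW 264.7 array at 7.33, so that the lines overlapped at that point. Without the cortisol-serotonin arrays the difference was 4.51-fold. Within RAW 264.7 cells the cortisol-serotonin array differed from the untreated one by -0.56 ± 0.47 in the ratio and by 0.05 in the Cy5 channel alone, with a reference level higher by 0.62.

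**Figure D3:**
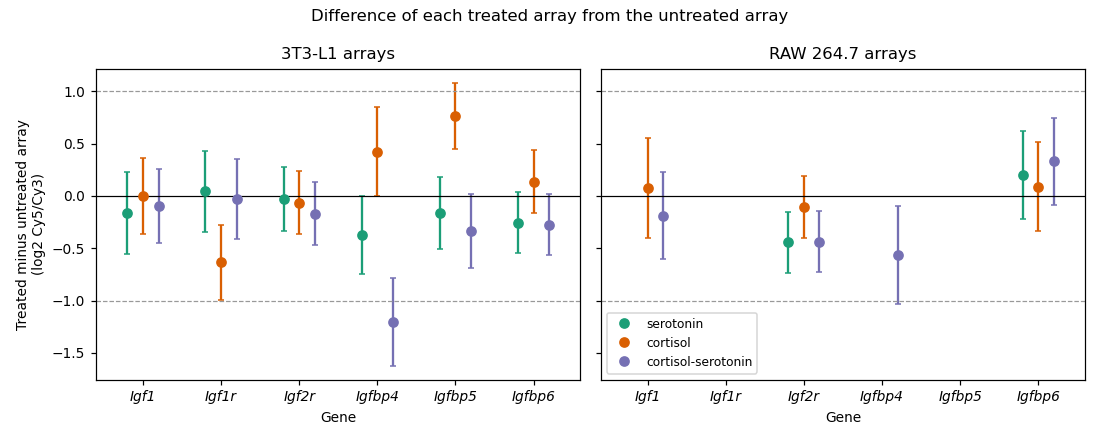
Log2 difference of each treated array from the untreated array of the same line for the 6 members with a measured ratio, 3T3-L1 left and RAW 264.7 right. Bars are the combined technical error of the scanner software, and dashed lines mark 2-fold; Igfbp4 on the 3T3-L1 cortisol-serotonin array lies at -1.20, below the dashed line, and Igfbp5 on the 3T3-L1 cortisol array at 0.76.

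Igfbp5, which binds to the extracellular matrix as well as to IGFs, was present in 3T3-L1 cells and at background in RAW 264.7 cells. Its Cy5 signals were 545.5, 595 and 322 units on the 3T3-L1 arrays labelled serotonin, cortisol and cortisol-serotonin, against 403 units on the untreated array. On the RAW 264.7 arrays they were 62, 40 and 47 units, against 42 units on the untreated array. It was at least 5.13-fold higher in 3T3-L1 cells, with measured Cy5 means of 9.07 ± 0.55 and 6.63 ± 0.28 (log2, SD, n = 4 conditions each).

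The log2 ratios of Igfbp5 in 3T3-L1 cells were -1.38, -0.45 and -1.55 on the arrays labelled serotonin, cortisol and cortisol-serotonin, against -1.22 on the untreated array. The array labelled cortisol stood above the others. It was higher than the untreated array by 0.76 ± 0.32 (1.70-fold), between 0.76 and 1.34 under the alternatives, and 4.76% of all genes differed by as much or more. The cortisol-serotonin array differed from the cortisol array by -1.10 ± 0.33 (2.14-fold lower), and by -0.68 with median centring, which is less than 2-fold and leaves Igfbp4 (-1.29) as the member past it. Under median centring the median of all genes in this comparison was 0.32. On the arrays labelled serotonin and cortisol-serotonin the differences from the untreated array were -0.16 ± 0.34 and -0.34 ± 0.35.

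Igfbp6, which binds IGF2 more tightly than IGF1, was detected on all 8 arrays. Its log2 ratios were 0.05, 0.44 and 0.03 on the 3T3-L1 arrays labelled serotonin, cortisol and cortisol-serotonin, against 0.30 on the untreated array. They were -2.26, -2.37 and -2.13 on the RAW 264.7 arrays, against -2.46 on the untreated array. The lines did not overlap, as for 35.5% of all genes in this direction, and Igfbp6 was higher in 3T3-L1 cells by 2.51 ± 0.13 (SE; 5.69-fold), between 2.09 and 2.69 under the other settings. The Cy5 signals were 1821 to 2024 units on 3T3-L1 arrays and 278 to 361 units on RAW 264.7 arrays. Summed fibroblast markers differed 42.2-fold between the lines, against 4.56-fold for the Cy5 level of Igfbp6. The gap varied among the summed markers. On the untreated 3T3-L1 and RAW 264.7 arrays the Cy5 level (log2) was 13.31 and 10.07 for Col6a1, and 15.69 and 7.23 for Fn1. The part of these markers in the values of Igfbp6 was not tested.

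The treatment differences of Igfbp6 were within the technical error. They were -0.25 ± 0.29, 0.14 ± 0.30 and -0.27 ± 0.29 in 3T3-L1 cells and 0.20 ± 0.42, 0.09 ± 0.43 and 0.33 ± 0.41 in RAW 264.7 cells, in the order serotonin, cortisol, cortisol-serotonin. The last of these came with a change of -0.51 in the reference level and was -0.18 in the Cy5 channel alone.

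Igfbp3, the main carrier of IGFs in blood, and Igfbp7, a member of the wider family with low affinity for IGFs, were dim in 3T3-L1 cells. Igfbp3 had Cy5 signals of 130.5, 70 and 125 units on the treated 3T3-L1 arrays, against 86 units on the untreated array, and of 66.5, 41 and 44 units on the RAW 264.7 arrays, against 43 units on the untreated array. Its normalised Cy5 levels were 7.36, 6.94 and 7.37, against 6.91 on the untreated 3T3-L1 array, so that the arrays labelled serotonin and cortisol-serotonin were higher than the other two. The reference level moved with it, with a Cy5 difference from the untreated array of 0.45 and a Cy3 difference of 0.34 on the serotonin array, and of 0.46 and 0.32 on the cortisol-serotonin array. No ratio was taken, since the reference was not well above background on any array. Compared as for Igf1r, Igfbp3 was 1.58-fold higher in 3T3-L1 than in RAW 264.7 cells, with measured means of 7.14 and 6.38. At these levels the value is not a firm lower limit.

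Igfbp7 had Cy5 signals of 69, 76.5 and 73.5 units on the treated 3T3-L1 arrays, against 78 units on the untreated array, and of 69, 36 and 46 units on the RAW 264.7 arrays, against 45.5 units on the untreated array. Compared in the same way, Igfbp7 was 1.31-fold higher in 3T3-L1 cells, with mean Cy5 levels of 6.86 and 6.34. This is not a firm lower limit either. The 69 units were well above background on the 3T3-L1 serotonin array and not on the RAW 264.7 serotonin array. Igfbp2, a binding protein made by adipocyte precursors and liver, was at background on all 3T3-L1 arrays in both of its probes, at 36 to 55 units. On RAW 264.7 arrays 1 of its probes was well above background only on the serotonin array, at 102 units, where 57.5% of all spots were well above background in Cy5, against 47.9% to 53.9% on the other arrays.

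Across the family, 6 members could be set against the untreated array in 3T3-L1 cells, and 2, 3 and 4 in RAW 264.7 cells for serotonin, cortisol and cortisol-serotonin. No member differed at least 2-fold on the 3T3-L1 arrays labelled serotonin and cortisol, where 1.24% and 1.65% of all genes did, nor on the RAW 264.7 arrays, where 0.914%, 0.083% and 0.254% did. The median difference of the measured members was -0.16, 0.07 and -0.22 in 3T3-L1 cells and -0.12, 0.08 and -0.31 in RAW 264.7 cells, beside medians of all genes within 0.04 of 0. These contrasts chose the members, and nothing is read from the shares.

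The genes whose log2 ratios moved most like a member were sought over the 8 arrays, centred within each line, among 10995 genes. For Igf2r they were Pin4 (Pearson's r = 0.99), Ift43 (0.93) and Lrch4 (0.92), and for Igfbp6 they were Fam174c (0.99), Rrp7a (0.98) and Upf3a (0.98). These are the highest of many correlations over 8 points that share arrays and reference.

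The other genes of the pathway were examined as a list of 58, of which 57 had a probe and 39 were measured on all 8 arrays. Between the cell lines, 23 of the 39 were higher and 7 were lower in 3T3-L1 than in RAW 264.7 cells by limma with Benjamini-Hochberg adjusted p under 0.05. Among all genes 38% were higher and 36.3% lower, and the median difference was 0.44 for the list and 0.04 for all genes. With median centring 13 of the list were higher, and with the Cy5 channel alone 15. All 6 measured adaptors and receptor regulators were higher, and so were all 3 measured RNA-binding proteins of Igf2 mRNA, Igf2bp1 (1.07), Igf2bp2 (0.37) and Igf2bp3 (1.47). With median centring and with the Cy5 channel alone these kept their sign, but Grb2, Sh2b2 and Igf2bp2 did not pass. Not all parts of the list went this way with loess. Of 16 PI3K, AKT and mTOR genes 8 were higher and 4 lower. Of 3 genes for mannose 6-phosphate sorting 1 was higher and 2 lower, and of 6 RAS and MAP kinases 1 and 0. Of 2 binding protein proteases and inhibitors 1 was higher and 1 lower, and both related receptors and the 1 other binding protein were higher.

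Irs2, the insulin receptor substrate that couples IGF and insulin receptors to PI3K, had the largest difference of the list, 5.06 ± 0.15 (log2, SE, adjusted p = 6.3e-10). Htra1, a secreted protease that can cut binding proteins, was higher by 3.29 ± 0.18, Ghr, the growth hormone receptor, by 2.47 ± 0.10, and Gnptg, a subunit of the enzyme that makes the mannose 6-phosphate tag, by 1.80 ± 0.10. Insr, the insulin receptor, was higher by 0.79 ± 0.17. Lower in 3T3-L1 cells were Stc2, an inhibitor of pappalysin (-3.76 ± 0.11), the PI3K catalytic subunit Pik3cb (-2.61 ± 0.14), Gnptab, the other subunit of the tagging enzyme (-1.16 ± 0.12), and Rptor, a component of mTOR complex 1 (-0.82 ± 0.14). Pappa2, Stc1 and Grb14 were well above background on every 3T3-L1 array and on no RAW 264.7 array, and Insrr showed the reverse. Pappa, the protease that cuts IGFBP4, was well above background on all 4 3T3-L1 arrays and on 1 RAW 264.7 array, and differed from the untreated 3T3-L1 array by 0.28, 0.41 and 0.13 on the arrays labelled serotonin, cortisol and cortisol-serotonin.

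**Figure D4:**
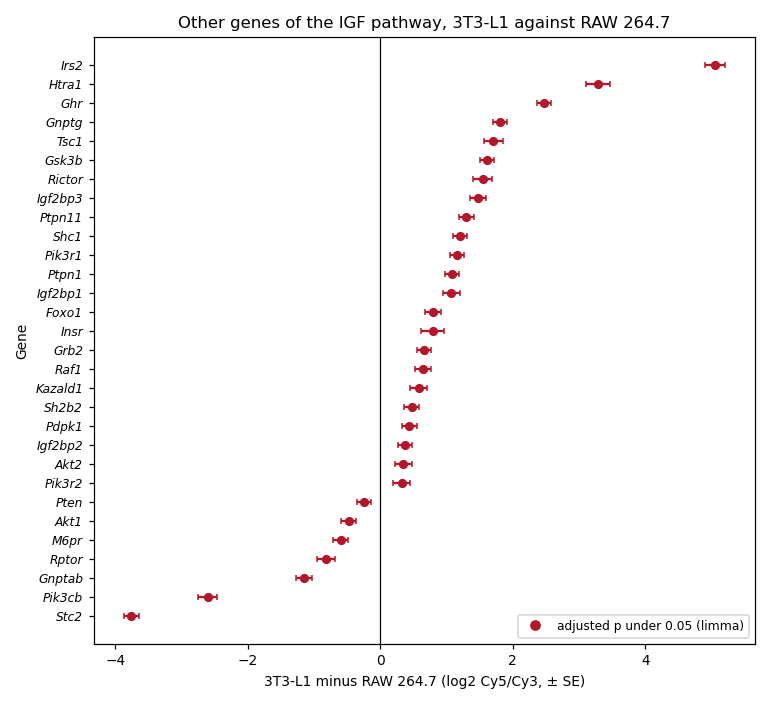
Difference between the cell lines (3T3-L1 minus RAW 264.7, log2 ratio ± SE) of the 30 other genes of the pathway that passed an adjusted p of 0.05 in limma, among 39 measured on all 8 arrays. The points reach from -3.76 for Stc2 to 5.06 for Irs2, with 23 right of 0 and 7 left of it.

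For the hormone labels, an additive limma model passed none of the 39 genes in any of its 4 effects, beside 0.109% of all genes for serotonin in 3T3-L1 cells and 0% for the other 3 effects. Over those 39 genes and 4 effects, 9 values had an unadjusted p under 0.05 in the same model. No share of all genes was set beside that count, and nothing is read from it. By size, only Irs2 differed at least 2-fold from the untreated array, on the 3T3-L1 cortisol-serotonin array (1.01), with 0.89 and 0.85 on the arrays labelled serotonin and cortisol. Tsc1, a brake on mTOR, differed by 0.97 and the adaptor Irs1 by 0.80 on the 3T3-L1 array labelled serotonin. In RAW 264.7 cells the differences of large size were -0.67 for Gnptab and -0.53 for Htra1 on the array labelled cortisol, and -0.45 for the mTOR complex 2 component Rictor on that labelled serotonin.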

How the data were processed

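RNA of 4 conditions in each of 2 co-cultured cell lines was hybridised on 8 two-colour arrays. The authors scanned them with Agilent Feature Extraction (10.5.1.1 per the submitters' processing notes), and the deposited scanner files hold median signal and background intensity values of both channels. They also hold that software's processed intensities and a log10 ratio with its error. The deposited series table repeats this log10 ratio for all 43020 spots within 0.005 plus that share of the value, as Cy5 over Cy3. The p-values that the authors' software gives for cells against reference were not used.

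Background was corrected by normexp with an offset of 50, and log2 ratios were then loess-normalised array by array (limma 3.58.1, R 4.3.3). Control and outlier spots were left out, and spots of a probe were averaged. For each gene, probes that exceeded background clearly in Cy5 and Cy3 on the arrays being compared were averaged. Of 39429 probes, 27508 (69.8%) were named through RefSeq (GRCm38.p6). Cy5 levels were normalised between arrays by Aquantile. The lowest correlation between log ratios of 2 arrays was -0.22. No spot was saturated, and the number of arrays limits the precision.

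The cell lines were compared with limma over 8 arrays with line and treatment as terms (3 residual degrees of freedom) and the hormones with an additive model within each line (2 residual degrees of freedom), with Benjamini-Hochberg adjustment. Both fits were tested on simulated data. The 4 conditions of a line stand in for replicates, so p-values measure the spread between these arrays only. The members and lists were chosen with earlier results of these data known. Named are all members, the 4 other genes of the pathway with the largest differences in each comparison, and the 3 genes most like a member; Insr, Pappa, Pappa2, Stc1, Grb14, Insrr and the Igf2bp genes were added after their values were seen. A gene that this rule also names is not reported here. Alternatives were no background correction, the software's log ratio, median centring, the Cy5 channel alone, no filter on dim probes, the brightest probe of a gene, the model terms and leaving arrays out.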

Additional observations from a re-analysis of the deposited data

How the results depend on the processing

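Each condition had 1 array, so the differences of the members from the untreated array have no replicate check, and their errors are technical. Replicates could not be paired, because each condition had 1 array per cell line. The comparison of the lines did match arrays by treatment. Without the treatment term 24 other genes of the pathway were higher in 3T3-L1 cells, against 23. Low signal limited Igf1, Igf2, Igfbp2, Igfbp3 and Igfbp7. Of the 27 measured differences of members, the brightest probe, no background correction and no filter on dim probes moved 0, the software's log ratio 3, the Cy5 channel alone 5 and median centring 16. Among the members with a measured difference only Igf1 had more than 1 probe. For the others the brightest probe and the lack of a filter could only repeat the main value. Median centring put the all-gene median at 1.08, 0.60 and 1.00 on the 3T3-L1 arrays labelled serotonin, cortisol and cortisol-serotonin. Under it 2 members (Igf1r and Igf2r) were past 2-fold on the serotonin array and 1 (Igfbp5) on the cortisol array, against 0 on each with loess. The member past 2-fold on the cortisol-serotonin array was then Igf1r (1.08) and not Igfbp4. Without the filter 1 member was past 2-fold on the RAW 264.7 cortisol-serotonin array, against 0 with it; this is Igf1r, through its low reference spot.

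Between the cell lines, 23 other genes of the pathway were higher in 3T3-L1 cells, 13 with median centring and 15 with the Cy5 channel alone; of all genes 8169 passed, and 4957 with median centring. Leaving out each treatment, and dropping the treatment term, kept both counts within 1.5 times. Over the hormone effects, 0 calls were made in the pathway list, 20 with median centring, 1 with the 4 arrays of a line alone and 0 to 1 when each array was left out; the 1 call was Htra1, at -0.72 for serotonin in 3T3-L1 cells, without the RAW 264.7 serotonin array or with the 3T3-L1 arrays alone. Of all genes 12 passed, with 3 for the software's log ratio, 4607 with median centring, 1 with the Cy5 channel alone, 29 without the filter, 371 with each line alone and 0 to 272 when each array was left out: 0 without any 3T3-L1 array and 203, 272, 207 and 258 without the RAW 264.7 array labelled untreated, serotonin, cortisol and cortisol-serotonin. The cause was not tested.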

Other observations

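The ratios to the common reference give a further view of the family. Averaged over the 8 arrays on the linear scale, the ratio of cells to reference was 0.266 for Igfbp5, and 0.304% of 14803 probes lay at or below that value. Igfbp6 averaged 0.683, Igf2r 1.24 and Igf1r 1.59, beside a median of 0.995 over all probes, which the normalisation of each array sets close to 1. The value for Igf1r includes the RAW 264.7 cortisol-serotonin array, whose reference spot was low. Without swapped dyes, the make-up of the reference and the dye bias of a probe cannot be told apart in these values.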
